A study of Mus musculus with 6 samples.

Results

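The feedback inhibitors of ERK signalling examined here are 10 genes, namely the dual-specificity phosphatases Dusp1, Dusp4, Dusp5, Dusp6 and Dusp7, the Sprouty genes Spry1, Spry2 and Spry4, and the SPRED genes Spred1 and Spred2. They were chosen by name, with earlier results of these data known, among the 19933 genes that the arrays measured with an unshared probeset. All 10 were covered, each by the probeset with the highest mean where a gene had more than 1, which was the case for Spred2 alone. The cells were NCU10K, an immortalised mouse neural crest cell line, in which both groups were transfected in the same way and collected after 48 h. In 3 biological replicates the siRNA was directed against Nedd4, which encodes a HECT-type ubiquitin ligase, and in the other 3 it was a low GC control siRNA. Total RNA of each replicate was hybridised to 1 Affymetrix mouse gene array, so that the spread described here is that between 3 arrays per siRNA. A single Nedd4 siRNA sequence was used in a single cell line, so effects of losing Nedd4 and other effects of that siRNA cannot be told apart. In such bulk RNA, fewer cells of a type and less RNA per cell cannot be told apart either. Values are log2 expression as deposited, a difference of 1 being a doubling, and a change was called at an adjusted p under 0.05 from limma.

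Growth factor receptors signal through RAS, RAF and MEK to the kinase ERK, and ERK induces genes that damp the same cascade. The DUSP phosphatases remove phosphate from the activation loop of MAP kinases. Sprouty proteins act upstream, between receptor and RAF, and SPRED proteins bring the RAS inactivator neurofibromin to the membrane. In the neural crest this cascade lies downstream of FGF, PDGF and neuregulin receptors. Sprouty proteins are themselves controlled by ubiquitination, and SPRY2 is a known substrate of NEDD4, but arrays measure mRNA and not protein.

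After Nedd4 knockdown 4 of the 10 genes rose, 2 fell and 4 did not pass the test. Dusp1, Dusp5, Spry1 and Spred1 were 1.29- to 1.69-fold higher, and Dusp6 and Dusp7 were 1.38- and 1.43-fold lower. Among all 19933 genes 9.62% rose, 9.13% fell and 18.7% were called in either direction (16.1% of all 28440 probesets). Without the dimmest 50% of probesets 4746 were called, a larger share than among all probesets. The values for all genes given here were not matched to the 10 genes for signal. The 3 Nedd4 siRNA arrays did not overlap the 3 control arrays for 8 of the 10 genes, against 31.7% of all genes. The median size of the log2 fold change, regardless of sign, was 0.40 over the 10 genes and 0.11 over all genes, whereas the signed medians were 0.08 and −0.02. Because the 10 genes were chosen with earlier results known, these comparisons with all genes are descriptions and cannot test whether the 10 changed more often. The called feedback inhibitors did not share a direction, since all 4 rises were in Dusp1, Dusp5, Spry1 and Spred1 and both falls were in DUSP genes. By the methods' t-test, a plain test per probeset without the pooling of variances in limma, only Dusp1 (adjusted p = 0.0484) and Dusp7 (0.0112) of the 10 passed.

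**Figure D1:**
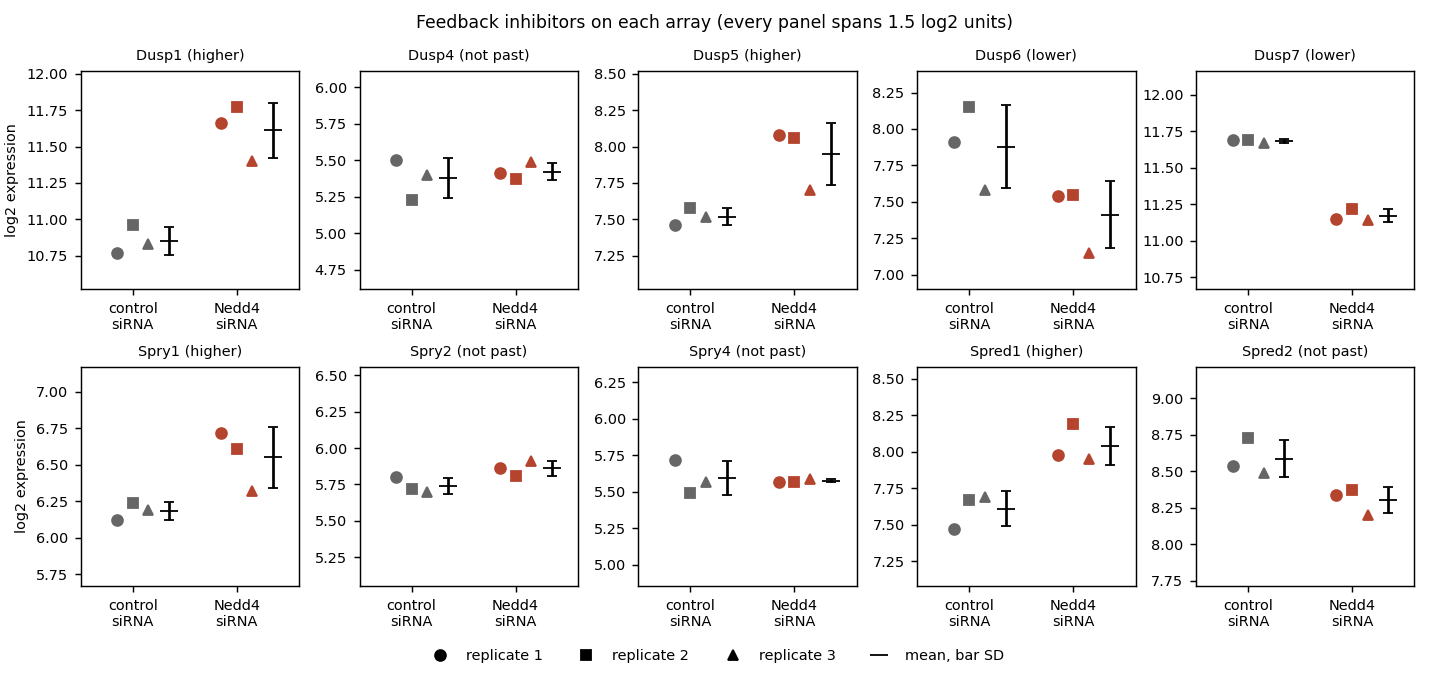
Log2 expression of each of the 10 feedback inhibitors on each array, grey for control siRNA and red for Nedd4 siRNA, with replicate 1 as a circle, 2 as a square and 3 as a triangle, and with the mean and SD of 3 arrays at the side. Nedd4 siRNA arrays lie wholly above the controls for Dusp1, Dusp5, Spry1, Spry2 and Spred1 and wholly below them for Dusp6, Dusp7 and Spred2.

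The sequences upstream of the transcription start are shown for Dusp1 and Dusp5, which rose, and for Dusp6, which fell, because these are the genes whose induction by growth factors has been studied most. They are the 250 bases before the RefSeq start in build GRCm38.p6, written 5′ to 3′ on the strand of the gene, with matches to the searched motifs in capitals. Dusp1 is taken from chr17:26508473-26508722 on the minus strand, Dusp5 from chr19:53528895-53529144 on the plus strand and Dusp6 from chr10:99262981-99263230 on the plus strand.
Dusp1: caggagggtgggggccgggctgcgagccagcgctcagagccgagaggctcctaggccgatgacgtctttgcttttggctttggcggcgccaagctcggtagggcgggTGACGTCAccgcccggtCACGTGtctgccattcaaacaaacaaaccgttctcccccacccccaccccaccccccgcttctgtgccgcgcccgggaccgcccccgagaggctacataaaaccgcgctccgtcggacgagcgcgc
Dusp5: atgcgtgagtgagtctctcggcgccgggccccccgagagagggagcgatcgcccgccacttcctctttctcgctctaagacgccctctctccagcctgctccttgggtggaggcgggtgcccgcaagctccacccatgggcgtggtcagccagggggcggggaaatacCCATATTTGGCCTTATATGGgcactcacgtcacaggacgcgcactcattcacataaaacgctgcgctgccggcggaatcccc
Dusp6: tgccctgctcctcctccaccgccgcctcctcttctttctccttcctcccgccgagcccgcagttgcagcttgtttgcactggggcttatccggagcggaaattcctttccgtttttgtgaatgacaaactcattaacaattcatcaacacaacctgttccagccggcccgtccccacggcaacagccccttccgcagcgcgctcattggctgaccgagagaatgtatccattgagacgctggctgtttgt
The motifs searched on both strands were the cyclic AMP response element TGACGTCA, the AP-1 site TGANTCA, the ETS core CCGGAA, the E-box CACGTG and the CArG box, to which serum response factor binds. Dusp1 held the cyclic AMP response element at positions −143 to −136 from the start and an E-box at −126 to −121. Dusp5 held a pair of adjacent CArG boxes, CCATATTTGG at −82 to −73 and CCTTATATGG at −72 to −63. Of 32851 RefSeq upstream sequences of the same length, 1.55% hold the cyclic AMP response element, 6.02% the E-box, 1.47% a CArG box, 6.75% the AP-1 site and 12.0% the ETS core. Upstream sequences were at hand for 8 of the 10 genes, and the other 6, namely those of Dusp6, Dusp7, Spry1, Spry2, Spred1 and Spred2, held none of these letters in this window. No matches overlapped each other.

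Of Dusp1, Dusp4 and Dusp5, whose products are nuclear phosphatases, Dusp1 and Dusp5 rose and Dusp4 did not pass the test. Dusp2, another nuclear MAP kinase phosphatase gene outside the 10, did not pass either (−0.03, adjusted p = 0.927 from limma). Whether genes for nuclear and cytoplasmic phosphatases differed as groups was not tested. Dusp1, an immediate early gene whose product acts on ERK, p38 and JNK, was at 10.77, 10.96 and 10.83 on the control arrays and at 11.66, 11.77 and 11.40 on the Nedd4 siRNA arrays. All 3 Nedd4 siRNA arrays lay above all controls, and the gap between the groups was wider than the range within either. The mean rose from 10.85 ± 0.097 to 11.61 ± 0.19 (SD, n = 3 arrays each), a 1.69-fold rise with a log2 fold change of 0.76 (SE 0.11, 95% interval 0.52 to 0.99, adjusted p = 0.000385 from limma). This was the largest change in size among the 10 genes. Dusp5, an ERK-specific nuclear phosphatase, was at 7.46, 7.58 and 7.52 on the control arrays and at 8.08, 8.06 and 7.70 with Nedd4 siRNA. Replicate 3 of the Nedd4 siRNA group lay much nearer to the controls than the other two. The log2 fold change of Dusp5 was 0.43 (SE 0.11, 95% interval 0.19 to 0.66, adjusted p = 0.0173 from limma). The call for Dusp5 was lost without control replicate 1 (adjusted p = 0.0536 from limma) or 3 (0.0526) and without Nedd4 siRNA replicate 1 (0.105) or 2 (0.0647). Dusp4, an inducible phosphatase of ERK and JNK, was at 5.50, 5.23 and 5.40 with control siRNA and at 5.41, 5.37 and 5.49 with Nedd4 siRNA. The groups overlapped, and its log2 fold change was 0.05 with a 95% interval of −0.16 to 0.25 (adjusted p = 0.857 from limma). Dusp4 stood below the median of all probesets on all 6 arrays, and no detection call was used here, so a change in a faint transcript could go unseen.

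Dusp6 and Dusp7, which encode cytoplasmic ERK phosphatases, were lower with Nedd4 siRNA, whereas Dusp9, a further gene of that kind outside the 10, did not pass (−0.07, adjusted p = 0.791 from limma). Dusp7 was at 11.69, 11.69 and 11.67 on the control arrays and at 11.15, 11.22 and 11.14 on the Nedd4 siRNA arrays. Its arrays were the most tightly grouped of the called genes. The mean fell from 11.68 ± 0.012 to 11.17 ± 0.044 (SD, n = 3 arrays each), with a log2 fold change of −0.51 (SE 0.083, 95% interval −0.69 to −0.33, adjusted p = 0.000912 from limma). Dusp6, the classical ERK-induced phosphatase that in turn dephosphorylates ERK, was at 7.91, 8.15 and 7.58 with control siRNA and at 7.54, 7.55 and 7.15 with Nedd4 siRNA. The groups were apart by only 0.03, since control replicate 3 lay next to Nedd4 siRNA replicates 1 and 2. The log2 fold change of Dusp6 was −0.47 (SE 0.15, 95% interval −0.78 to −0.15, adjusted p = 0.0473 from limma), so that it passed narrowly. Without control replicate 1 (adjusted p = 0.11 from limma) or 2 (0.167), or without Nedd4 siRNA replicate 1 (0.0682) or 3 (0.183), it was not called, nor was it with median centring (0.0749). Within each array, Dusp5 shifted against Dusp6 by 0.89 on the log2 scale between the groups, without overlap of the arrays. The exact permutation test, two-sided, gave p = 0.1, below which 3 arrays per group cannot go. That outcome was fixed beforehand, because Dusp5 lay wholly above and Dusp6 wholly below the controls, so it adds no support. This pair was set side by side after its values were seen.

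Of the Sprouty genes, Spry1 rose, and Spry2 and Spry4 did not pass the test. Spry1, which inhibits signalling from FGF and other receptor kinases to RAS, was at 6.12, 6.24 and 6.19 on the control arrays and at 6.72, 6.61 and 6.32 with Nedd4 siRNA. Again Nedd4 siRNA replicate 3 lay closest to the controls, by 0.08 from the highest of them. The log2 fold change of Spry1 was 0.37 (SE 0.11, 95% interval 0.13 to 0.60, adjusted p = 0.0358 from limma). The call was lost without control replicate 1 (0.0999), 2 (0.0542) or 3 (0.0862) and without Nedd4 siRNA replicate 1 (0.199) or 2 (0.103), as adjusted p from limma. Without Nedd4 siRNA replicate 3 the adjusted p of Spry1 from limma was 0.00813. Spry2, which encodes the Sprouty protein ubiquitinated by NEDD4, was at 5.80, 5.72 and 5.70 and with Nedd4 siRNA at 5.86, 5.81 and 5.91. The groups did not overlap, but the difference of 0.12 (SE 0.085, 95% interval −0.06 to 0.30) did not pass (adjusted p = 0.463 from limma). Spry4, another inducible Sprouty gene, was at 5.72, 5.49 and 5.57 on control arrays and at 5.57, 5.57 and 5.59 with Nedd4 siRNA. Its log2 fold change was −0.02, with a 95% interval of −0.21 to 0.18 (adjusted p = 0.952 from limma). Spry2 and Spry4, like Dusp4, lay below the array median on all 6 arrays, so that 3 of the 4 genes that did not pass had a low signal throughout. Spry1 was below it on 4 arrays.

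Of the SPRED genes, Spred1 rose and Spred2 did not pass the test. Spred1, whose loss of function causes a disorder resembling neurofibromatosis in humans, was at 7.47, 7.67 and 7.69 with control siRNA and at 7.98, 8.19 and 7.95 with Nedd4 siRNA. All Nedd4 siRNA arrays exceeded all controls. The rise of Spred1 was 0.43 on the log2 scale (95% interval 0.21 to 0.65, SE 0.10, limma adjusted p = 0.0101), and it was called whichever single array was left out (adjusted p of 0.0159 to 0.0442 from limma). Spred2, its paralogue, was at 8.54, 8.73 and 8.49 on control arrays and at 8.34, 8.37 and 8.20 with Nedd4 siRNA. The groups did not overlap, but the log2 fold change of −0.28 (SE 0.096, 95% interval −0.49 to −0.07) did not pass (adjusted p = 0.068 from limma). The other probeset of Spred2 was at 8.35, 8.72 and 8.29 against 8.24, 8.26 and 7.94, and gave −0.31 (adjusted p = 0.142 from limma). Within each array Spred1 shifted against Spred2 by 0.71 between the groups (exact permutation test, p = 0.1), a pair likewise chosen after its values were seen. Here too the outcome was fixed beforehand, because Spred1 lay wholly above and Spred2 wholly below the controls. The same smallest p of 0.1 was reached by all 8 genes whose groups did not overlap, whereas Dusp4 (p = 0.8) and Spry4 (p = 1) did not reach it in the exact permutation test.

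**Figure D2:**
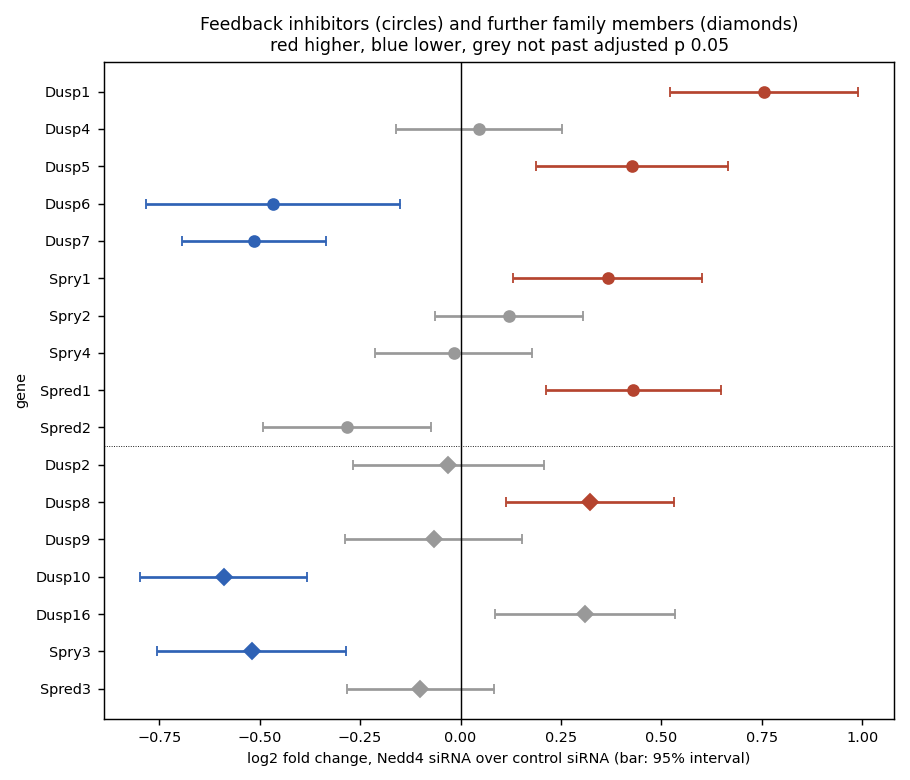
Change in mRNA with Nedd4 siRNA on the log2 scale, with its 95% interval from limma, for the 10 feedback inhibitors (circles) and 7 further genes of the same families (diamonds), red where called higher, blue where called lower and grey otherwise. Values run from 0.76 for Dusp1 to −0.59 for Dusp10, and DUSP and Sprouty genes lie on both sides of 0.

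Further genes of the same families also went both ways. Of 7 such genes, 1 rose, 2 fell and 4 did not pass. Dusp10, a phosphatase of p38 and JNK, was at 9.66, 9.82 and 9.67 with control siRNA and at 9.13, 9.25 and 9.00 with Nedd4 siRNA, and so fell by 0.59 on the log2 scale (SE 0.096, limma adjusted p = 0.000973). Spry3 fell by 0.52 on the log2 scale (SE 0.11, adjusted p = 0.00511 from limma). Dusp8, which acts mainly on JNK and p38, rose by 0.32 (SE 0.096, adjusted p = 0.0375 from limma). For Dusp10 and Spry3 each Nedd4 siRNA array was below each control array, and for Dusp8 each was above.

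Nedd4 siRNA replicate 3 had the lowest value of its group in 7 of the 10 feedback inhibitors. Over all genes this was so for 36.7% and over all called genes for 50.4%. For the 4 genes that rose, this array was therefore the one nearest to the controls, and for Dusp6 and Dusp7 the one farthest from them. Nedd4 itself was at 10.45, 10.94 and 10.68 on Nedd4 siRNA replicates 1, 2 and 3, against 12.24 to 12.35 on the controls, so replicate 3 was intermediate in its remaining Nedd4 mRNA. Nedd4 fell by 1.62 on the log2 scale (SE 0.12, limma adjusted p = 3.16e-06). Egr1, an immediate early transcription factor gene, varied in the same order as Spry1 and Dusp5, with 8.16, 7.92 and 7.37 on Nedd4 siRNA replicates 1 to 3 against 6.97 to 7.13 on the controls. Fos was at 7.32, 7.24 and 6.94, against 6.66 to 6.97. Egr1 and Fos were picked for this comparison after their values were seen, and what sets replicate 3 apart was not tested.

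**Figure D3:**
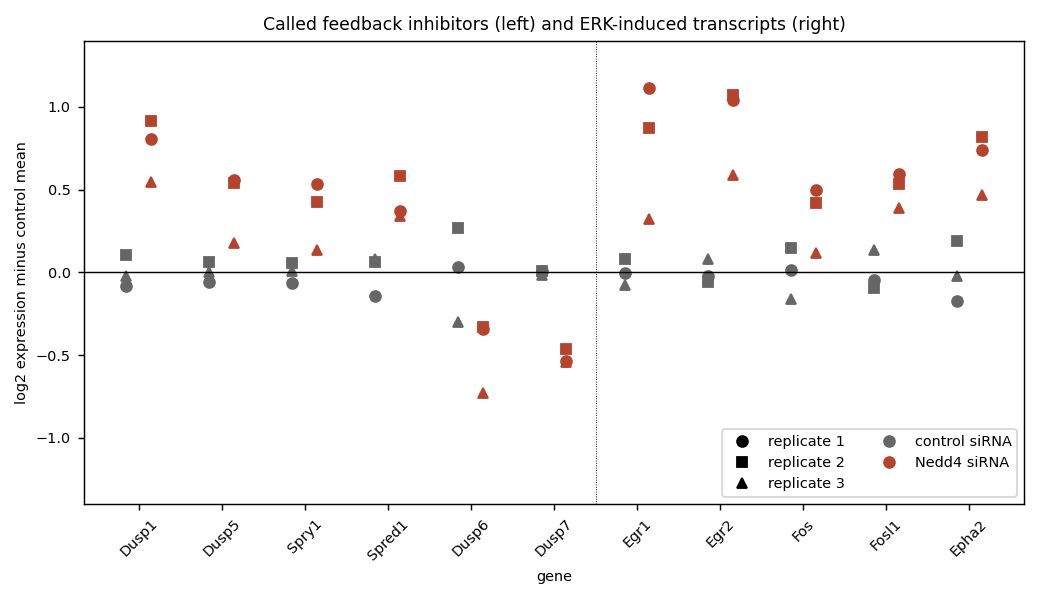
Log2 expression minus the control mean of the same gene, on control (grey) and Nedd4 siRNA (red) arrays, for the 6 called feedback inhibitors on the left and 5 ERK-induced transcripts on the right, with replicate 1 as a circle, 2 as a square and 3 as a triangle. The triangle is the lowest red point for each gene shown. Among the feedback inhibitors it lies 0.55 above the control mean for Dusp1 and 0.73 below it for Dusp6. The 5 ERK-induced transcripts are a selection from 20 measured. Some not shown differ, as Etv4 was highest on Nedd4 siRNA replicate 3 (5.42, 5.28 and 5.50 on replicates 1 to 3).

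Transcripts that ERK induces were examined beside its inhibitors, since the latter belong to the same response. Of 20 measured genes of that kind outside the 10, 5 rose, 0 fell and 15 did not pass, with a median log2 fold change of 0.08. At an unadjusted p under 0.05 from limma 6 were higher and 0 lower, and by the methods' t-test 0 were called. Egr2, an immediate early gene that is also a regulator of myelination, was at 6.21, 6.17 and 6.31 on control arrays and at 7.27, 7.30 and 6.82 with Nedd4 siRNA. It rose by 0.90 on the log2 scale (SE 0.12, limma adjusted p = 0.000288). The receptor gene Epha2 (0.68, SE 0.12, adjusted p = 0.00155 from limma) and the AP-1 subunit gene Fosl1 (0.51, SE 0.097, adjusted p = 0.00304 from limma) also rose. Egr1 had a log2 fold change of 0.77 (adjusted p = 0.0048 from limma) and Plaur, the urokinase receptor gene, of 0.47 (adjusted p = 0.00738 from limma). Other members of the list did not pass, among them the ETS factor genes Etv4 (−0.19, adjusted p = 0.253 from limma) and Etv5 (0.05, adjusted p = 0.812), Ccnd1 (0.04, adjusted p = 0.877) and Myc (−0.01, adjusted p = 0.975). Of these 20 genes, 7 were below the array median on all 6 arrays.

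In the cascade on which the inhibitors act, 5 of 21 measured genes rose, 4 fell and 12 did not pass. At the receptor level the PDGF receptor gene Pdgfra rose (0.81, SE 0.087, adjusted p = 4.98e-05 from limma) while the FGF receptor gene Fgfr1 fell (−0.70, SE 0.089, adjusted p = 0.000175 from limma). Pdgfrb also rose (0.54, adjusted p = 0.00129 from limma), and Egfr did not pass (0.05, 0.857). The neuregulin receptor gene Erbb3, listed with the neural crest markers and not here, fell (−1.14, adjusted p = 2.93e-05 from limma). This is mRNA, and the authors reported more ERBB3 protein after Nedd4 knockdown, by proteomics and western blot. Below the receptors, the RAF kinase gene Braf rose (0.67, SE 0.11, adjusted p = 0.00101 from limma). The RAS gene Nras fell (−0.45, adjusted p = 0.00207 from limma), as did the MEK gene Map2k1 (−0.43, adjusted p = 0.00395 from limma). Negative regulators of RAS and ERK from other families had 5 of 15 higher and 1 lower. Lrig1, an inhibitor of ERBB receptors (0.68, SE 0.10, adjusted p = 0.000473 from limma), and Lztr1, an adaptor for RAS degradation (0.66, SE 0.11, adjusted p = 0.0011 from limma), rose, and the receptor phosphatase gene Ptprj fell (−0.68, SE 0.084, adjusted p = 0.000142 from limma). The median log2 fold change of that list was 0.14. Among 14 measured binding partners and modifiers of Sprouty and SPRED proteins 2 rose and 1 fell. The lists overlap, so that Nf1 was also counted among the negative regulators and Ptpn11 among the cascade genes. Nf1, which encodes the neurofibromin that SPRED proteins recruit, rose by 0.33 (SE 0.085, adjusted p = 0.017 from limma), as did Tesk1, a kinase that binds Sprouty (0.28, SE 0.086, adjusted p = 0.0432 from limma). Ptpn11, the gene of the phosphatase SHP2, fell by 0.33 on the log2 scale (SE 0.089, adjusted p = 0.0228 from limma).

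The stress kinase cascade holds JNK and p38, on which the products of Dusp1, Dusp8 and Dusp10 act, and kinases above and below them. Of its 16 measured genes 2 were higher, 5 lower and 9 not past the test. The largest of these falls were those of Map2k4, a kinase upstream of JNK (−0.70, SE 0.084, adjusted p = 0.000107 from limma), Mapkapk3, a substrate of p38 (−0.64, SE 0.10, adjusted p = 0.000988 from limma), and Mapk11, which encodes p38β (−0.56, SE 0.088, adjusted p = 0.000803 from limma). The 2 rises were those of Map3k5 (0.53, adjusted p = 0.00499 from limma) and Mapkapk2 (0.45, adjusted p = 0.0124 from limma). The median of the list was −0.01.

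**Figure D4:**
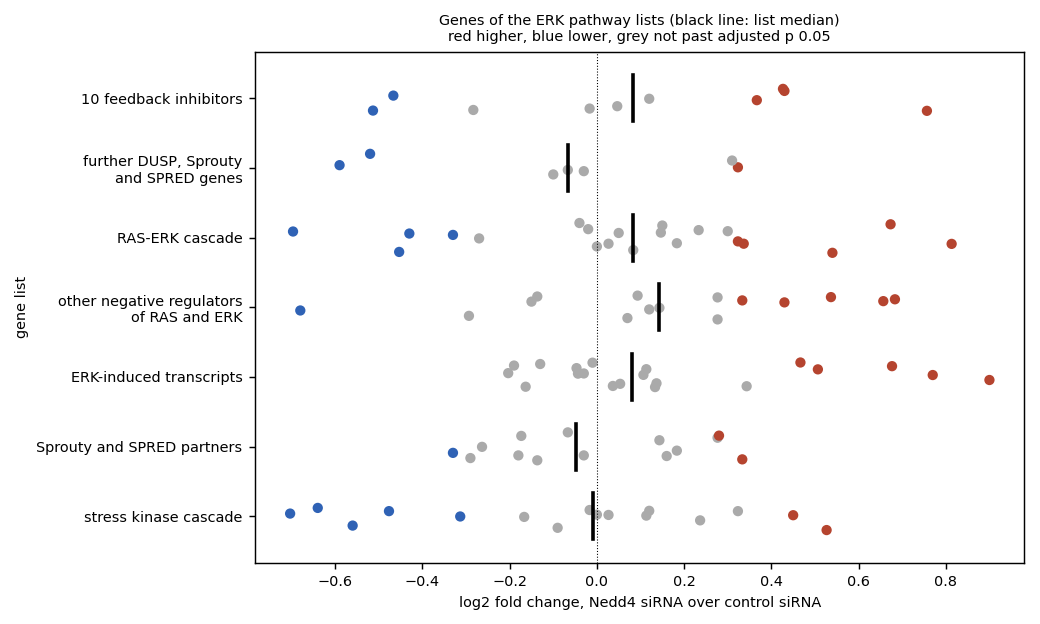
Log2 fold change of each measured gene in 7 groups, the 10 feedback inhibitors and 6 lists of the ERK and stress kinase pathways, with red, blue and grey points for called higher, called lower and not past the test, and a black line at each median. List medians lie between −0.07 and 0.14, and in all lists except the ERK-induced transcripts called genes lie on both sides of 0.

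The genes whose array values ran closest to those of Dusp1 and Dusp7, the members with the smallest p, were found by the root mean square difference over the 6 arrays of log2 values centred on each gene's control mean. For Dusp1 they were Zbtb18 (0.0478), which encodes a zinc finger repressor, Plcl1 (0.0513) and Prr13 (0.0634), with log2 fold changes of 0.82, 0.81 and 0.76. For Dusp7 they were Tgfb2 (0.0178), which encodes a TGF-β ligand, Sec23b (0.0251), a coat protein gene of vesicles leaving the endoplasmic reticulum, and Atp6v0a1 (0.0267), a proton pump subunit gene. Their log2 fold changes were −0.52, −0.50 and −0.48. None of these belongs to the lists above, and the likeness is a description over 6 arrays.

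The median log2 value of an array was 6.28 to 6.35, with an interquartile range of 3.06 to 3.33. Of 10 measured neural crest markers, 6 were lower and 2 higher with Nedd4 siRNA, and their summed log2 level was 92.02 to 92.53 on control and 89.17 to 90.13 on Nedd4 siRNA arrays. Sox10, at 10.53 to 11.19 over the 6 arrays, and Snai2, at 11.89 to 12.43, were well above the array medians. Both were called lower, with log2 fold changes of −0.43 (adjusted p = 0.00864 from limma) and −0.33 (0.0293). Erbb3 had the largest fall (−1.14, adjusted p = 2.93e-05 from limma). The 2 higher markers were Sox9 (0.66, adjusted p = 0.000337 from limma) and Twist1 (0.31, 0.0419). Tfap2b, 1 of the 10, was below the median on every array. Of 9 fibroblast and smooth muscle markers 2 were higher, with sums of 59.35 to 60.06 and 61.22 to 61.84. Neuronal markers had 1 of 5 higher and sums of 27.42 to 28.42 and 27.91 to 28.22. Of the 6 markers each of blood with endothelium and of epithelium, 0 were called by limma or the methods' t-test and 0 had an unadjusted p under 0.05, and 5 of each 6 were below the median on all arrays. Of 12 measured genes of the response to double-stranded RNA and interferon, 9 were below the median on all arrays, so rises could go unseen. In limma 0 of the 12 were higher, also at an unadjusted p under 0.05 and by the methods' t-test. Lower were 3, namely Ifit3 (−0.90, SE 0.089, adjusted p = 3.02e-05 from limma), Cxcl10 (−0.92, adjusted p = 0.0004) and Ifit1 (−0.30, adjusted p = 0.0298). The part of these shifts in the values of the feedback inhibitors was not tested.

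**Figure D5:**
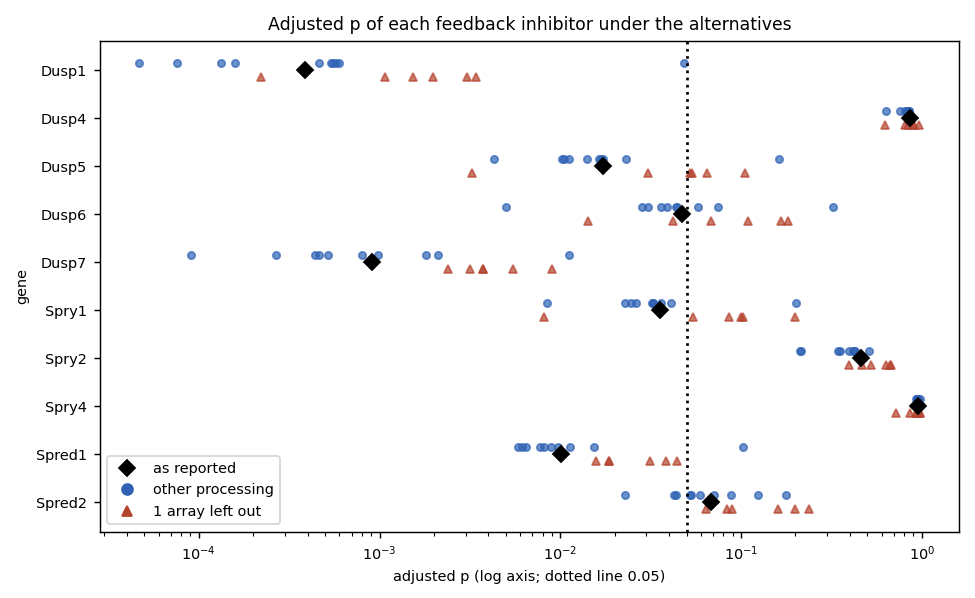
Adjusted p of each of the 10 feedback inhibitors on a log axis, as reported (black diamond), with other processing (blue circles) and with 1 array left out (red triangles), with a dotted line at 0.05. All points of Dusp1 and Dusp7 lie left of the line, those of Dusp4, Spry2 and Spry4 lie right of it, and those of Dusp5, Dusp6, Spry1, Spred1 and Spred2 fall on both sides.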

How the data were processed

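NCU10K cells transfected with control or Nedd4 siRNA were profiled on Affymetrix arrays that probe along whole mouse transcripts, 3 per group. The authors deposited log2 expression values to 2 decimals for 28440 probesets. They used Partek Genomics Suite (version 6.5 per the submitters' processing notes), correcting background by RMA, with GC content correction and mean probe summarization, which average over transcript isoforms and compress changes of faint genes. No further normalization was applied. A single gene symbol was given for 21780 probesets, several for 1618 and none for 5042. Groups were compared with limma 3.58.1 (lmFit and eBayes, R 4.3.3) without covariates, with Benjamini-Hochberg adjustment over all probesets. The methods name an ANOVA, run as an alternative and called the methods' t-test. The test was tested on simulated data. Permutation tests, lists and motifs were computed in Python 3.11.15 with pandas 2.3.3. Precision is limited by the number of arrays.

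The 10 genes and all lists were chosen with earlier results of these data known. Named genes are the 10, Nedd4, up to 3 called genes with the smallest p per list, and the 3 nearest in array values to the 2 members with the smallest p. Dusp4 and Spry4 were not examined for motifs, and protein motifs were not searched. Dusp2, Dusp9, Egr1, Fos, Plaur, Etv4, Etv5, Ccnd1, Myc, Sox10, Snai2 and Tfap2b were added to those named once their values were known. So were Pdgfrb, Egfr, Erbb3, Nras, Map2k1, Map3k5, Mapkapk2, Sox9 and Twist1. Genes of a list without a probeset of their own were not analysed here. The replicate numbers were not used to pair the arrays. Same-numbered arrays deviated from their group means with correlations of −0.0123, 0.472 and −0.0131. Control replicate 1 and Nedd4 siRNA replicate 3 had 0.4155. With 3 arrays per group this cannot decide whether the numbers mark pairs, so the replicate block was run as an alternative.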

Additional observations from a re-analysis of the deposited data

How the results depend on the processing

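Dusp1 and Dusp7 kept their direction and stayed past the threshold under all 16 alternatives run for them, at 0.68 to 0.86 and −0.54 to −0.49 on the log2 scale, and Dusp4, Spry2 and Spry4 passed under none of theirs. By the methods' t-test, 1 gene was called higher and 1 lower, and 2134 probesets in all. Dusp5 (0.43, adjusted p = 0.161), Dusp6 (−0.47, 0.321), Spry1 (0.37, 0.202) and Spred1 (0.43, 0.103) then did not pass. At an adjusted p under 0.01 from limma, 1 gene was higher and 1 lower, and 2881 probesets were called. Dusp6 was not called with array weights (−0.39, adjusted p = 0.0579) or median centring (−0.44, 0.0749), which left 1 gene lower. Spred2 was called lower with quantile normalization (−0.29, adjusted p = 0.0227), without the dimmest 50% of probesets (−0.28, 0.0437) and with the replicate block (−0.28, 0.0424). With that replicate block 4 genes were higher, 3 lower and 4962 probesets called, and no call of the other 9 genes changed. Dusp6 then had an adjusted p of 0.00498 from limma, against 0.0473 without the block. Leaving out 1 array gave 2 to 4 genes higher, 1 to 2 lower and 2962 (without Nedd4 siRNA replicate 1) to 4312 probesets called. The log2 fold changes then ranged from 0.36 to 0.55 for Dusp5, −0.62 to −0.33 for Dusp6, 0.28 to 0.48 for Spry1, 0.36 to 0.47 for Spred1 and −0.33 to −0.21 for Spred2. Dusp4 and Spry4, neither called, had values of either sign, from −0.03 to 0.11 and from −0.07 to 0.05. Apart from the smaller number of arrays or the stricter threshold, the cause of these shifts was not tested. Dusp4, Spry2 and Spry4 had a low signal, which limits what could be seen of them. Dusp4 was among the dimmest 25% of probesets and had no value in either filtered table, nor did Spry2 and Spry4 without the dimmest 50%.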
